A study of Mus musculus with 6 samples.

Results

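The 6 genes Plau, Plaur, Plat, Serpine2, Serpinb2 and Serpinb5, which encode plasminogen activators, the urokinase receptor and serpins, were followed in Carmil3 knockout and control 4T1 cells. They were chosen by name, and all 6 were found among the 23644 genes of the deposited table. 4T1 is a mouse mammary tumour cell line, and Carmil3 is a member of the CARMIL family of proteins that bind actin capping protein. RNA sequencing was done on 3 libraries of Carmil3 knockout cells and 3 libraries of control cells, which the labels call wild type. Per the labels, the knockout cells were clones that each grew from a single cell, and both groups were cultured in the same serum-containing medium. The labels do not say how many clones were sequenced, how the gene was disrupted or whether replicates were cultured separately. The p-values thus set the difference between the groups against the spread of these libraries within a group, and that spread may be technical. A difference between clones and an effect of the Carmil3 knockout cannot be told apart here.

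Plasminogen is a blood-borne proenzyme that is cut to the broad protease plasmin by urokinase (Plau) or tissue plasminogen activator (Plat). Urokinase acts at the cell surface, where the receptor Plaur holds it, and tissue plasminogen activator acts mainly on plasminogen bound to fibrin or to cells. Serpins are suicide inhibitors that trap serine proteases: Serpine2 (protease nexin-1) inhibits thrombin, urokinase and tissue plasminogen activator, and Serpinb2 is plasminogen activator inhibitor-2. Serpinb5, or maspin, has the serpin fold without the usual inhibitory mechanism and is known as a gene of normal mammary epithelium. Tumour cells use this system to break down matrix and to activate other proteases and growth factors.

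Values are FPKM, which are scaled for exon length and library size, so levels of different genes can be compared per length. The total by which each library was scaled, fitted from the steps between low values, lay between 18138994 and 19046903 in knockout and between 17779037 and 18719029 in control libraries. The reads recovered over all listed genes came to 108.7% to 109.1% of these totals, so the totals are a fitted scale and not a count of all reads. Carmil3 itself was listed at 0 to 0.0241 FPKM in knockout and at 0.0117 to 0.0360 FPKM in control libraries, too low in both groups for its level to check the labels. The 8 epithelial markers summed to between 428 and 473 FPKM in knockout libraries and between 1017 and 1111 FPKM in control libraries, and each was called lower. Nearly all of the knockout sum was Krt8 and Krt18, with means of 217 and 227 FPKM in knockout cells. Epcam, Krt7, Krt14 and Esrp1 were at no more than 0.20 FPKM in any knockout library. Cdh1 had a mean of 0.773 FPKM in knockout and 12.4 FPKM in control cells. The 4 fibroblast markers in the table summed to between 17.8 and 18.3 FPKM in knockout and between 11.4 and 12.01 FPKM in control libraries. Nearly all of that was Pdgfra, which was called higher (17.6 ± 0.272 FPKM in knockout, 10.1 ± 0.135 FPKM in control cells; SD, n = 3 each), while Col1a1 was called lower and Col1a2 was under 0.1 FPKM throughout. The 6 leukocyte markers summed to between 2.58 and 3.39 FPKM in knockout and between 3.21 and 3.65 FPKM in control libraries, mostly Cd68, with Ptprc, Adgre1 and Itgam under 0.1 FPKM in every library, as were all 4 endothelial markers in the table. The part of any of these in the members' values was not tested. Knockout replicate 3 stood apart from the other knockout libraries: genes with exons of at least 6000 bases had a median difference of -0.10 from them on the log2(FPKM + 1) scale, and genes under 2000 bases had one of 0.14.

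Urokinase and its receptor were expressed at a high level in both groups, and neither passed the test, whereas tissue plasminogen activator rose in knockout cells. Serpinb5 was listed at 0 in every knockout library and was detected in every control library, and Serpinb2 was at trace level throughout. Of the 6 members, 4 passed the filter of at least 1 FPKM in at least 3 libraries and were tested with limma on log2(FPKM + 1) over all 11171 genes that passed. Of those 4, Plat was called higher, none was called lower and 3 did not pass the adjusted threshold of 0.05. Over all genes tested 16.9% were called higher and 18.7% lower, so 1 rise among 4 is near the background. Knockout and control values were fully separate for 1 of the 4 tested members, Plat, against 50.5% of all genes tested.

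**Figure D1:**
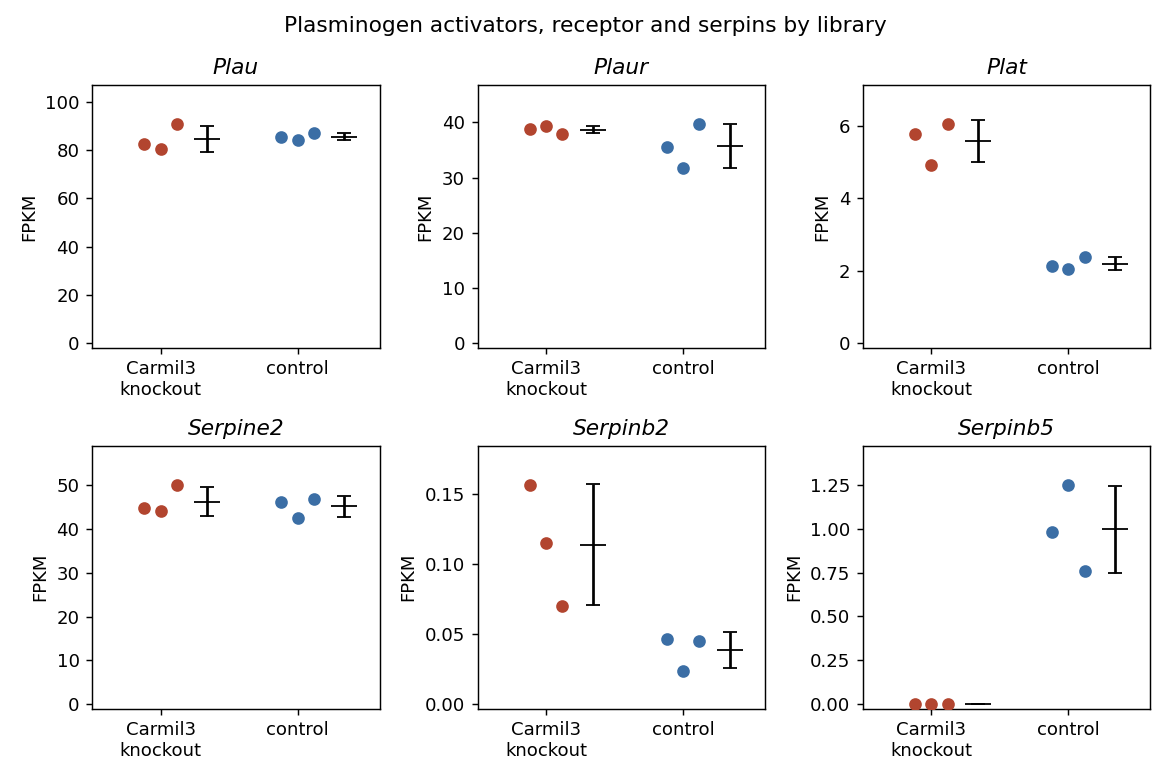
FPKM of each member (vertical axes, each with its own scale from 0) in the 3 Carmil3 knockout libraries (red) and the 3 control libraries (blue), with the mean and SD as black bars. Plat stands at 4.93 to 6.04 FPKM in knockout and 2.05 to 2.40 FPKM in control libraries, Serpinb5 is at 0 in every knockout library, and Plau, Plaur and Serpine2 overlap between the groups.

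Plau (ENSMUSG00000021822), the urokinase gene, lies on chromosome 14 from 20836660 to 20843385 on the plus strand of GRCm38. It measured 82.5, 80.6 and 90.6 FPKM in knockout replicates 1 to 3 and 85.3, 84.1 and 87.0 FPKM in control replicates 1 to 3. The control values lie inside the range of the knockout values. The means were 84.6 ± 5.32 FPKM in knockout and 85.5 ± 1.43 FPKM in control cells (SD, n = 3 each). By FPKM Plau was the highest member in both groups, at rank 489 of all listed genes in knockout and rank 469 in control cells. By summed recovered reads Serpine2 was above it, with 21366 against 11139 in knockout and 20518 against 11068 in control libraries. Their order by FPKM thus rests on the exon lengths used, 2367 bases for Plau and 8287 bases for Serpine2. The log2 change of (FPKM + 1) was -0.017 with a standard error of 0.059 and a Benjamini-Hochberg adjusted p of 0.846 (limma). Its 95% interval ran from -0.15 to 0.12, which on that scale is a ratio of knockout to control between 0.900 and 1.09.

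Plaur (ENSMUSG00000046223), the gene of the membrane-anchored receptor that binds urokinase, lies on chromosome 7 from 24462484 to 24475968 on the plus strand. It measured 38.7, 39.3 and 38.0 FPKM in the knockout libraries and 35.6, 31.7 and 39.6 FPKM in the control libraries. The knockout values were close together, and control replicate 3 lay above all of them. The means were 38.7 ± 0.679 FPKM in knockout and 35.7 ± 3.97 FPKM in control cells (SD, n = 3 each). The log2 change was 0.12 (95% interval -0.056 to 0.30), with an adjusted p of 0.255 by limma. The receptor transcript was thus less abundant per length than that of its ligand in every library, by a ratio of Plau to Plaur of 2.19 ± 0.176 in knockout and 2.41 ± 0.231 in control cells (SD, n = 3 each). That ratio overlapped between the groups and gave p = 0.2 in a two-sided exact permutation test. No p below 0.1 can be reached by that test with 3 libraries a group.

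Plat (ENSMUSG00000031538), the gene of tissue plasminogen activator, rose in knockout cells. It lies on chromosome 8 from 22757727 to 22782844 on the plus strand. It measured 5.77, 4.93 and 6.04 FPKM in the knockout libraries and 2.15, 2.05 and 2.40 FPKM in the control libraries. Every knockout value was more than the highest control value, and the spread within each group was small beside the gap between them. Behind these values stood 686, 569 and 684 recovered reads in the knockout libraries and 244, 228 and 280 in the control libraries. The means were 5.58 ± 0.582 FPKM in knockout and 2.20 ± 0.176 FPKM in control cells (SD, n = 3 each), a ratio of 2.54. The log2 change of (FPKM + 1) was 1.04 with a standard error of 0.083 and a Benjamini-Hochberg adjusted p of 3.53e-05 (limma). Tested against a change of 1.5-fold the adjusted p was 0.0115, a threshold that 1.06% of all genes passed in this direction. Of all genes tested 0.949% were called higher with a log2 change of at least 1. The size depends on the scale: the log2 change was 0.55 with a pseudocount of 5, and 1.34 with limma-voom on the recovered reads.

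Even after this rise tissue plasminogen activator remained the minor activator transcript. Plat made up 6.54%, 5.76% and 6.25% of the summed FPKM of Plau and Plat in the knockout libraries and 2.46%, 2.38% and 2.68% in the control libraries. The ratio of Plau to Plat was 15.2 ± 1.05 in knockout and 39.0 ± 2.41 in control cells (SD, n = 3 each). The groups did not overlap for either measure, and the two-sided exact permutation test gave p = 0.1, the smallest p this design allows. Both measures are computed from the same Plau and Plat values, so they must agree on overlap and restate the difference in Plat.

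Serpine2 (ENSMUSG00000026249), the gene of protease nexin-1, was the most abundant serpin among the members. It lies on chromosome 1 from 79794197 to 79861180 on the minus strand. It measured 44.8, 44.1 and 50.1 FPKM in the knockout libraries and 46.2, 42.5 and 47.0 FPKM in the control libraries. The groups overlapped, and the highest value was that of knockout replicate 3, as it was for Plau and Plat. The means were 46.3 ± 3.27 FPKM in knockout and 45.2 ± 2.41 FPKM in control cells (SD, n = 3 each). The log2 change was 0.033 (95% interval -0.12 to 0.18), with an adjusted p of 0.732 by limma.

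In the order of FPKM Plau came first, then Serpine2, Plaur and Plat, in all 6 libraries. The next place differed by group. Serpinb5 stood above Serpinb2 in every control library and below it in every knockout library. By ratio, Serpine2 and Plaur were the closest neighbours among the 4 tested members, but within each group their ranges did not overlap.

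Serpinb5 (ENSMUSG00000067006), the maspin gene, lies on chromosome 1 from 106861173 to 106883348 on the plus strand. It was listed at 0 in all 3 knockout libraries and at 0.980, 1.25 and 0.758 FPKM in control replicates 1 to 3. No read was recovered in any knockout library, against 49, 61 and 39 reads in the control libraries, and 3 reads in a knockout library would have been between 0.0573 and 0.0601 FPKM. The control mean was 0.995 ± 0.245 FPKM (SD, n = 3). Only control replicate 2 reached 1 FPKM, and the filter asks for 3 libraries, so the gene was not in the main fit. The two-sided exact permutation test gave p = 0.1, the smallest the design allows. With no filter, limma over all 23644 genes gave an adjusted p of 0.00182 and a lower level in knockout cells, a call that 7.88% of all genes had in that direction. Of 12298 genes with a control mean of at least 0.5 FPKM, 0.398% were listed at 0 in all 3 knockout libraries, as Serpinb5 was. Serpinb5, at rank 11052 in control cells, lies near the lower end of that set, where a value of 0 is more likely. Many of the genes so listed are short RNA genes that were also at 0 in some control library.

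The epithelial marker genes given above moved in the same direction as Serpinb5. Krt7 measured 0.149 ± 0.0541 FPKM in knockout and 27.9 ± 2.30 FPKM in control cells, and Esrp1, an epithelial splicing regulator, was at no more than 0.00874 FPKM in any knockout library (SD, n = 3 each). Their part in the value of Serpinb5 was not tested. In bulk RNA, fewer cells that express a gene and less of its RNA per cell cannot be told apart.

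Serpinb2 (ENSMUSG00000062345), the gene of plasminogen activator inhibitor-2, lies 0.650 Mb from Serpinb5 in the same serpin cluster, on chromosome 1 from 107511423 to 107535478 on the plus strand. It was listed at 0.156, 0.115 and 0.0704 FPKM in the knockout libraries and at 0.0468, 0.0239 and 0.0455 FPKM in the control libraries. These values stand for 7, 5 and 3 recovered reads in knockout and 2, 1 and 2 reads in control libraries. The groups did not overlap, and the two-sided exact permutation test gave p = 0.1, but the level was at or near the limit of detection in both groups. With no filter the adjusted p of limma was 0.176. The annotated gene overlaps Serpinb10 on the same strand, so that reads of the 2 genes may not be told apart.

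The sequences upstream of these neighbouring serpin genes are shown because the 2 genes lie in 1 cluster, and 1 of them was detected in control cells only while the other was at trace level in both groups. They are 240 bases each, from 250 bases before the annotated start with the last 10 left out, from RefSeq on GRCm38.p6 (for Serpinb2 the first of its 2 starts), plus strand, 5′ to 3′. Capitals mark matches on either strand to an AP-1 motif (TGANTCA), a GC box (GGGCGG) or a TATA box (TATAAA).
Serpinb5, chr1:106860925-106861164: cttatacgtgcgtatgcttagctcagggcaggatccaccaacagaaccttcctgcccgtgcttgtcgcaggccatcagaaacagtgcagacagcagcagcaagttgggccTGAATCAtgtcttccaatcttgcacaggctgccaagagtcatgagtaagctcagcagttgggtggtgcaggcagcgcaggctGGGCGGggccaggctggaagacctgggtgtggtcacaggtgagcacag
Serpinb2, chr1:107511173-107511412: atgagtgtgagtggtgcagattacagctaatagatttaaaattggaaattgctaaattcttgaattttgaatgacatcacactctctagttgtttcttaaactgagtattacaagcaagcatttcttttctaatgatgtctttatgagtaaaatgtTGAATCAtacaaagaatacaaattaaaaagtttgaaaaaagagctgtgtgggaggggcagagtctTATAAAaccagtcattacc
The Serpinb5 window held an AP-1 match whose first base lies at -140 from the start and a GC box at -58, with a GC content of 57.9%. The Serpinb2 window held an AP-1 match at -94 and a TATA box at -29, with a GC content of 31.7%. Of all 32851 windows of the same length 6.58% held the AP-1 motif, 31.3% the GC box and 12.1% the TATA box. RefSeq windows were matched for 4 of the 6 members. Those of Plaur and Serpine2, genes whose levels overlapped between the groups, held 3 and 5 GC box matches, and that of Plaur also held an AP-1 match at -69. The matches describe the letters and not a site in use.

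Most other serpin genes were at very low level. Of 26 serpin genes in the table, members included, 15 were under 0.2 FPKM in every library, Serpinb2 among them. The other 3 clade B genes of the chromosome 1 cluster did not exceed 0.0344 FPKM. Of the 7 tested serpins, Serpine2 included, 1 rose, 3 fell and 3 did not pass, against 16.9% higher and 18.7% lower over all genes tested. Their median log2 change was 0.033, which is the value of Serpine2 itself. It was -0.18 for the 6 tested serpins other than Serpine2, against -0.0066 over all genes tested. Serpinf1, the gene of pigment epithelium-derived factor, measured 5.10, 4.93 and 4.81 FPKM in the knockout libraries and 0.560, 0.501 and 0.566 FPKM in the control libraries. Its log2 change was 1.95, with an adjusted p of 2.99e-07 by limma. Serpinb9, which inhibits granzyme B, fell to 1.90 ± 0.157 FPKM in knockout, against 2.84 ± 0.123 FPKM in control cells (SD, n = 3 each; log2 change -0.41). Serpinb6b, a clade B serpin of chromosome 13, also fell (log2 change -0.41). Serpinh1, the collagen chaperone of the endoplasmic reticulum, and Serpinb6a, an intracellular protease inhibitor, overlapped between the groups.

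**Figure D2:**
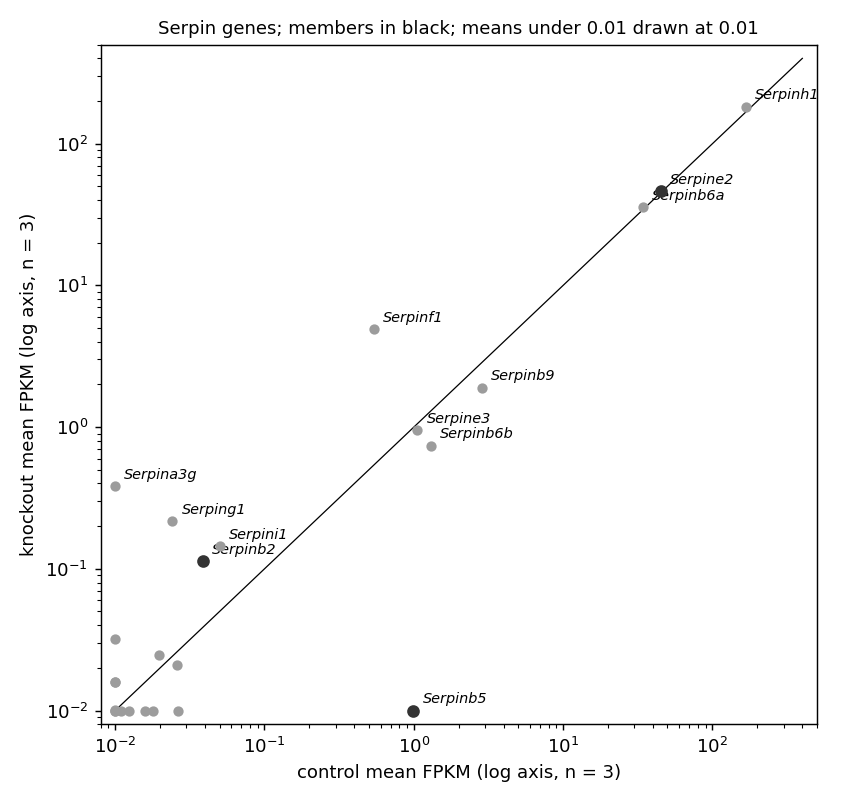
Mean FPKM of serpin genes in Carmil3 knockout (vertical) and control cells (horizontal), both on log axes, with members in black, other serpins in grey and the line of equal levels; means under 0.01 are drawn at 0.01. Serpine2 lies on the line at about 46.3 FPKM in knockout and 45.2 FPKM in control cells, Serpinf1 lies above it, and Serpinb5 lies below it.

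The ratio of urokinase to protease nexin-1 transcripts by FPKM lay between 1.81 and 1.98 in all 6 libraries. Its size rests on the exon lengths used, since Serpine2 had more recovered reads than Plau. Plau over Serpine2 was 1.83 ± 0.0151 in knockout and 1.89 ± 0.0760 in control cells (SD, n = 3 each). Every knockout ratio was below every control ratio, by a small margin, with p = 0.1 in a two-sided exact permutation test, the smallest possible.

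Other genes of plasminogen, its receptors, clearance and inhibitors were read from a list of 22 genes outside the 6 members. Of these 18 were in the table and 11 were tested: 2 rose, 3 fell and 6 did not pass, with a median log2 change of -0.056. These counts lie near the shares over all genes tested, 16.9% higher and 18.7% lower. Thbs1, whose product thrombospondin-1 binds plasminogen and its activators, had the largest change of the list, with 22.1 ± 0.748 FPKM in knockout and 65.3 ± 0.624 FPKM in control cells (SD, n = 3 each; log2 change -1.52). Mrc2, the gene of a collagen receptor that associates with the urokinase receptor, rose to 1.78 ± 0.162 FPKM in knockout, against 0.847 ± 0.164 FPKM in control cells (SD, n = 3 each; log2 change 0.59). Lrp8, a lipoprotein receptor gene, fell (log2 change -0.27).

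Genes whose products bind plasminogen at the cell surface ranged widely in level. Plgrkt, a plasminogen receptor gene, measured 4.02 ± 0.487 FPKM in knockout and 4.21 ± 0.321 FPKM in control cells (SD, n = 3 each; adjusted p = 0.645, limma). Anxa2, the annexin of the complex that binds plasminogen and tissue plasminogen activator, measured 204, 203 and 220 FPKM in the knockout libraries and 177, 182 and 180 FPKM in the control libraries. It was called higher, with a log2 change of 0.22 and an adjusted p of 0.0184 by limma, and it no longer passed when control replicate 1 was left out (adjusted p = 0.0944). S100a10, its partner in that complex, measured 224 ± 27.6 FPKM in knockout and 210.3 ± 0.790 FPKM in control cells (SD, n = 3 each; adjusted p = 0.453, limma), and the 256 FPKM of knockout replicate 3 stood above the rest. Eno1, a glycolytic enzyme gene whose product also binds plasminogen, measured 312 ± 2.80 FPKM in knockout and 282 ± 13.2 FPKM in control cells (SD, n = 3 each; adjusted p = 0.0752, limma). The clearance receptors Lrp1 and Igf2r did not pass, and both were low in knockout replicate 3, at 11.3 and 33.5 FPKM, against 17.7 to 18.7 and 45.4 to 45.5 FPKM in the other knockout libraries. That library is the one in which long transcripts were lower, and the part of transcript length in these values was not tested.

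**Figure D3:**
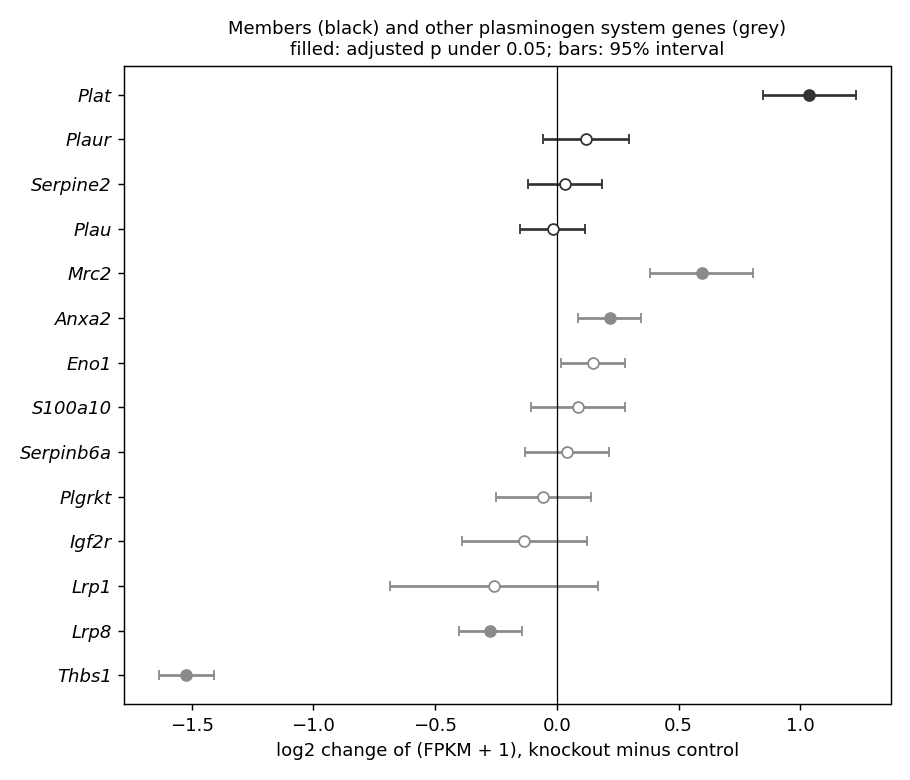
Log2 change of (FPKM + 1), knockout minus control, for the 4 tested members (black) and other tested genes of the plasminogen list (grey), with 95% intervals from limma; filled points have an adjusted p under 0.05. Plat lies at 1.04, the other members lie near 0, and Thbs1 lies at -1.52.

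Membrane partners of the urokinase receptor were read from a list of 12 genes, of which 8 were tested. Of these 1 rose, 4 fell and 3 did not pass, against 16.9% higher and 18.7% lower over all genes tested, and the median log2 change was -0.33, against -0.0066 over all genes tested. Integrin beta subunits that pair with alpha-v to bind vitronectin differed in direction: Itgb3 measured 22.6 ± 1.48 FPKM in knockout and 14.2 ± 1.11 FPKM in control cells, and Itgb5 measured 5.08 ± 0.156 FPKM in knockout and 15.6 ± 1.35 FPKM in control cells (SD, n = 3 each). Their log2 changes were 0.63 and -1.44, and both passed the test. Itgb1 (-0.66), Itga5 (-0.40) and the growth factor receptor gene Pdgfrb (-1.78) fell. Itga3, the most abundant alpha subunit of this list, measured 200.1 ± 18.8 FPKM in knockout and 217 ± 12.6 FPKM in control cells (SD, n = 3 each; adjusted p = 0.288, limma).

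Among genes whose products urokinase or plasmin cut or activate, 7 of 12 were tested, of which 4 rose, 2 fell and 1 did not pass, against the same shares of 16.9% higher and 18.7% lower over all genes. These genes had a median log2 change of 0.35, against -0.0066 over all genes. The list was chosen with earlier results of these data known, so its counts and median are no test of such genes as a group. Mmp3, the stromelysin-1 gene, measured 416, 427 and 480 FPKM in the knockout libraries and 342, 319 and 335 FPKM in the control libraries (log2 change 0.41). Mmp13, a collagenase gene, measured 8.48 ± 0.758 FPKM in knockout and 4.43 ± 0.246 FPKM in control cells (SD, n = 3 each; log2 change 0.80). Mmp9 and Tgfb1 rose too, with log2 changes of 1.20 and 0.35, and the call of Tgfb1 was lost when the change was centred on its neighbours (adjusted p = 0.182). Cdcp1, a membrane protein gene, fell by 0.22 on the log2 scale with an adjusted p of 0.0267 by limma. It no longer passed without control replicate 1, 2 or 3 or knockout replicate 1 (adjusted p between 0.0650 and 0.0719). Nor did it pass with no filter (adjusted p = 0.0617, limma) or in the test against a 1.5-fold change. Of all 26 called genes of the 6 lists other than the members, 8 also passed the test against a 1.5-fold change, among them F2rl1, Itgb5, Mmp9, Pdgfrb, Serpinf1 and Thbs1.

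The change of each member was set against that of its neighbours in the genome, since the median log2 change of tested genes differed between the members' chromosomes. It was -0.21 on chromosome 8, which holds Plat, and 0.13 on chromosome 7, which holds Plaur. On chromosome 1, which holds Serpine2, Serpinb2 and Serpinb5, it was -0.081, and on chromosome 14, which holds Plau, 0.048. The 40 tested genes nearest to Plat had a median log2 change of -0.015, with 9 called higher and 6 lower. Over all genes tested 16.9% were called higher and 18.7% lower. The closest on either side were Ikbkb (log2 change -0.18, not passed) and Ap3m2 (0.25, higher). After the change was centred on the neighbours, Plat kept a log2 change of 1.05 and its call. The neighbours of Plau and Plaur were higher as a group, with medians of 0.16 and 0.21, so that their centred log2 changes were -0.17 and -0.092. The centred adjusted p were 0.0601 and 0.422 by limma, and neither passed. For Serpine2 the median of the neighbours was 0.014. No tested gene lay within the serpin cluster that holds Serpinb5 and Serpinb2, and the tested genes on its sides differed. The 20 before Serpinb5, up to 13.2 Mb away, had a median log2 change of 0.12, with 7 called higher and 2 lower. The 20 after it, from 5.00 to 20.3 Mb away, had a median of -0.33, with none called higher and 15 lower, against the 18.7% lower over all genes tested.

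**Figure D4:**
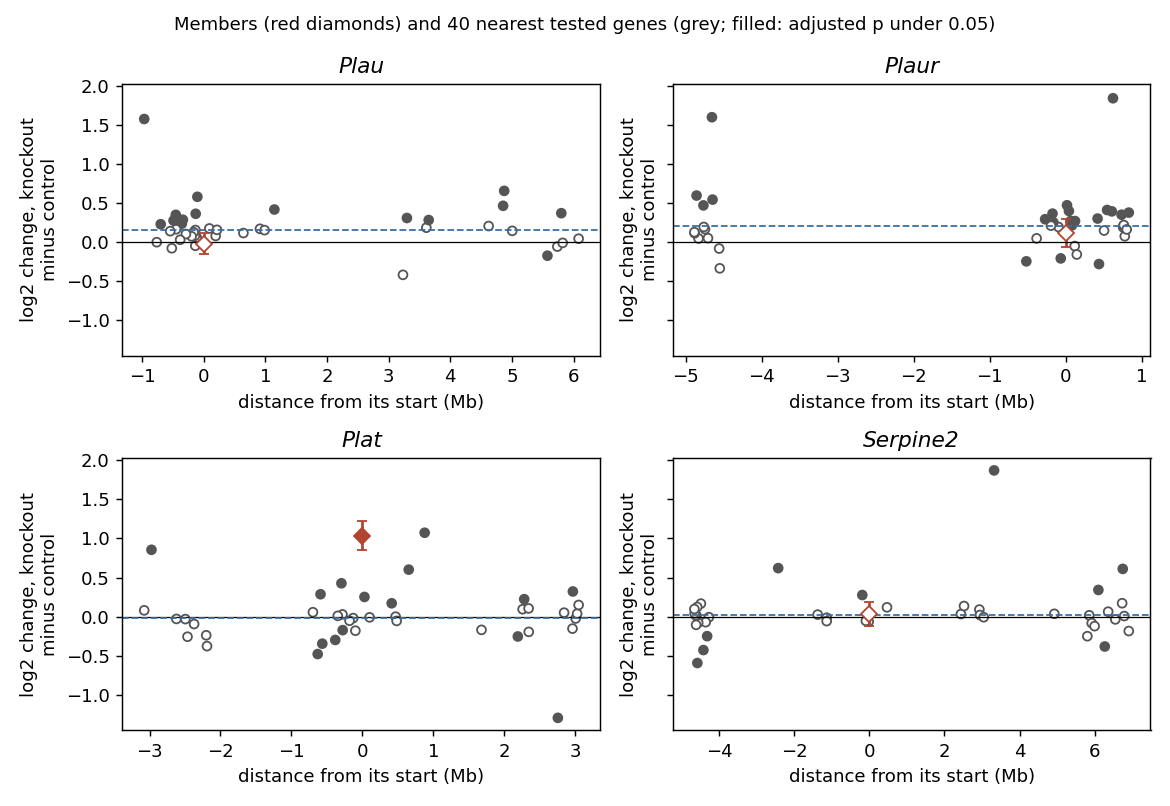
Log2 change of (FPKM + 1), knockout minus control, of 4 members (red diamonds, with 95% intervals) and of the tested genes next to them, 20 to each side (grey circles, filled where the adjusted p was under 0.05) against the distance between gene starts in Mb; the dashed line is the median of the neighbours. Plat lies at 1.04 over a neighbour median of -0.015, and Plau lies at -0.017 under a neighbour median of 0.16.

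The genes whose pattern over the 6 libraries was most like that of each tested member were found by the distance between centred log2(FPKM + 1) profiles, among genes whose mean reached 5 FPKM. For Plat they were Arhgdib and Tsc22d1, the second a transcription regulator gene, at distances of 0.106 and 0.111. Arhgdib measured 25.6 ± 1.83 FPKM in knockout and 11.5 ± 0.283 FPKM in control cells (SD, n = 3 each). For Plau they were Gabpb1 and Dnajb6 (0.0418 and 0.0423), for Plaur Mta1 and 1810055G02Rik (0.0442 and 0.0572), and for Serpine2 Ranbp1 and Rbpms (0.0384 and 0.0416). With 6 libraries in 2 groups, likeness to Plat is mostly likeness in the difference between the groups.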

How the data were processed

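RNA of 6 libraries was sequenced. The authors deposited FPKM for 23644 mouse genes; the unit was read from the values. Neither the strand setting nor the choice of reads or fragments was given in the sources used here. The submitters' processing notes name build mm10, HTSeq 0.6.0, TopHat2 2.0.12, CASAVA, TopHat, Bowtie2 and Bowtie. Symbols, positions and exon lengths came from GENCODE M21 (GRCm38), which matched 23587 rows. Recovered reads are FPKM times exon length times a fitted total per library; between 91.9% and 92.2% of values up to 500 reads came out whole within 0.02. Because the total is fitted, depths are relative.

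The test was limma 3.58.1 (R 4.3.3; trended and robust eBayes) on log2(FPKM + 1), with Benjamini-Hochberg adjustment over the 11171 genes that reached 1 FPKM in 3 or more libraries. A log2 change on this scale understates the change of low genes. Members below the filter got a two-sided exact permutation test. Python 3.11.15, pandas 2.3.3, scipy 1.17.1 and matplotlib 3.10.9 were used. Members and lists were chosen with earlier results of these data known. Named beside the members are tested genes of the plasminogen list, up to 3 called genes per direction of each other list with a mean of at least 2 FPKM (Itga5, Itga3, Tgfb1, Serpinb6b, Serpinh1, F2r and Ly6c1, outside that rule, were named after their values were seen), the 2 genes most like each tested member and nearest neighbours. Some genes counted in the lists are not reported here by name or drawn. Alternatives were other pseudocounts, filters, scalings and eBayes settings, a 1.5-fold test, a replicate block, each library left out, limma-voom on recovered reads, and centring on the 20 nearest tested genes on each side.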

Additional observations from a re-analysis of the deposited data

How the results depend on the processing

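Plat was called higher under every alternative that could test it, with adjusted p between 2.36e-10 (limma-voom with no filter) and 0.0115; the 5 FPKM filter removed it. Its log2 change lay between 0.99 and 1.11 with 1 library left out and between 0.55 and 1.34 in the other planned settings. Plau, Plaur and Serpine2 passed the threshold in none. Their log2 changes with 1 library left out lay between -0.067 and 0.016 for Plau, between 0.041 and 0.20 for Plaur and between -0.023 and 0.067 for Serpine2. The sign changed for Plau without knockout replicate 2 (0.016), for Serpine2 without control replicate 2 (-0.011) or knockout replicate 3 (-0.023), and for Plaur after centring on neighbours (-0.092). The exact p of Serpinb5 and Serpinb2 was 0.1, and 0.2 with any library left out. For Serpinb5 the adjusted p was 0.00182 with no filter and 1.02e-10 with limma-voom on the recovered reads and no filter, a setting added after seeing the data. For Serpinb2 the same settings gave 0.176 and 0.152. Centring, other pseudocounts, the 5 FPKM filter, eBayes settings, filtered limma-voom and the 1.5-fold test were not run for these 2 genes.

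Over all genes 1886 were called higher and 2087 lower, against 118 and 193 in the test against a 1.5-fold change. With 1 library left out the counts ran from 1182 to 2041 higher and from 1358 to 2218 lower, the lowest without control replicate 1. The plasminogen list had 2 higher genes, 1 with the filter of 5 FPKM, 0 in the 1.5-fold test and 1 to 2 with 1 library left out. The 3 lower genes remained 3 in count with any library left out, and were 2 with the filter of 5 FPKM and 2 in the 1.5-fold test. Deviations of same-numbered libraries correlated at -0.0615, 0.149 and 0.0981, and those of differently numbered libraries at between -0.196 and 0.0776. So few values cannot decide whether replicate numbers pair the samples. With the number as a block 1900 genes were higher and 2127 lower, and the log2 change of Plat was 1.04 with its call. The exact p with the block was 0.25 for Serpinb5 and Serpinb2, the smallest that 3 pairs allow. No rescaling moved the median of all genes by over 0.1 on the log2 scale. The depth limits Serpinb2, with 1 to 7 reads a library, and Serpinb5 in knockout cells.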

Other observations

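Genes of the thrombin and coagulation list changed in both directions. Of 17 genes named, 6 were tested: 2 rose, 3 fell and 1 did not pass, against 16.9% higher and 18.7% lower over all genes tested. F2rl1, the gene of the protease-activated receptor that trypsin-like proteases cut, measured 6.24, 5.34 and 5.19 FPKM in the knockout libraries and 14.8, 13.6 and 14.7 FPKM in the control libraries (log2 change -1.23). F3, which encodes tissue factor, fell to 3.04 ± 0.394 FPKM in knockout, against 5.53 ± 0.176 FPKM in control cells, and Tfpi, the gene of its inhibitor, rose to 4.70 ± 0.147 FPKM in knockout, against 2.67 ± 0.336 FPKM in control cells (SD, n = 3 each). Procr, the protein C receptor gene, fell (log2 change -0.45) and F5, the factor V gene, rose (0.51). F2r, the main thrombin receptor gene, measured 60.5 ± 2.57 FPKM in knockout and 58.2 ± 0.806 FPKM in control cells (SD, n = 3 each) and did not pass, with an adjusted p of 0.441 by limma.

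Of the LY6/uPAR family to which Plaur belongs by its fold, 12 genes were in the table and 3 were tested. Of these 1 rose, 1 fell and 1 did not pass, against 16.9% higher and 18.7% lower over all genes tested. Ly6a rose, with 3.79, 3.41 and 4.94 FPKM in the knockout libraries and 1.28, 2.05 and 1.77 FPKM in the control libraries (log2 change 0.90). Ly6e fell (log2 change -0.69), and Ly6c1 did not pass (adjusted p = 0.172 by limma, 0.0357 without control replicate 1). Ly6 genes are near-identical copies in part, so their single values are uncertain.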
